A study of Mus musculus with 6 samples.

Results

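The fibroblast growth factor (Fgf) genes described here are 10 named ligands and receptors of the mouse kidney, 6 ligands (Fgf1, Fgf7, Fgf8, Fgf9, Fgf10 and Fgf20) and 4 receptors (Fgfr1, Fgfr2, Fgfr3 and Fgfr4). They were chosen by name, and a gene counted as measured where a row of the deposited expression table held its Ensembl identifier. Of the 10 genes, 9 had a row among the 13965 rows of the table, and all 9 passed the filter on low values that left 13766 rows for testing. Fgf7, a mesenchymal ligand that signals to epithelium, had no row, so its expression was not analysed here. RNA was sequenced from whole kidneys at embryonic day 16 in 6 libraries. The 3 mutant libraries carried the Six2-TGC transgene and were miR-17~92 flx/flx, so that both copies of the microRNA cluster carried the sites at which Cre recombinase cuts. The 3 control libraries were labelled wild type and miR-17~92 flx/+, which gives them 1 floxed copy and names no transgene. Each of 3 litters gave 1 mutant and 1 control library. The labels do not give the number of embryos behind a library.

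Six2-TGC expresses Cre in the cap mesenchyme, the pool of nephron progenitors, and the progenitors' descendants inherit the recombined locus, while stroma, vessels and the ureteric bud do not descend from them. Because whole kidneys were sequenced, fewer cells of a type and less RNA per cell cannot be told apart in any value given here. Since the control label names no transgene, what the transgene does and what the deletion does cannot be told apart either.

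Fgf ligands are secreted proteins that bind receptor tyrosine kinases together with heparan sulfate at the cell surface, and the bound receptors signal through the adaptor Frs2 to Ras and the MAP kinases. In the developing mouse kidney, Fgf9 and Fgf20 keep nephron progenitors alive and undifferentiated, Fgf8 is made in the newly induced pretubular aggregate and is needed for nephron formation, and Fgf10 from the mesenchyme acts on the ureteric bud through Fgfr2. Fgfr1 and Fgfr2 act in the metanephric mesenchyme, and Fgfr4 is best known in the kidney for its part in phosphate handling by tubules.

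The deleted cluster encodes 6 microRNAs in 4 seed families, and their sequences are shown because the seed sets which transcripts each can pair with. Their hairpins lie on the plus strand of chromosome 14, between bases 115043671 and 115044506 of GRCm38.p6, and the sequences are from RefSeq with that build. Capitals mark the seed, bases 2 to 8, and letters are RNA from 5′ to 3′.
mmu-miR-17-5p: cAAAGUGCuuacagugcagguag
mmu-miR-20a-5p: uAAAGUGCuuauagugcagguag
mmu-miR-18a-5p: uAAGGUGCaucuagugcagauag
mmu-miR-19a-3p: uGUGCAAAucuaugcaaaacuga
mmu-miR-19b-3p: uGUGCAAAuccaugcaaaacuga
mmu-miR-92a-3p: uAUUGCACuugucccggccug

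Matches to these seeds were sought in the longest annotated 3′ UTR of each gene, on the transcript strand. A match was 7 bases, either GCACTTT or CACTTTA for miR-17 and miR-20a, GCACCTT or CACCTTA for miR-18a, TTTGCAC or TTGCACA for miR-19, and GTGCAAT or TGCAATA for miR-92a. The first form of each pairs with the whole seed, and the second with all but its last base, followed by A. Both forms at one place were counted as 1 site, and matches of different families were counted separately where they share bases, as TTTGCAC and GCACTTT can. Among tested rows of a single gene with an annotated 3′ UTR, 48.7% of 12678 had at least 1 match, and 22.8%, 16%, 20.7% and 14.7% had one for miR-17 and miR-20a, miR-18a, miR-19 and miR-92a. Fgf20, Fgf8, Fgf7, Fgfr1, Fgfr2 and Fgfr4 had 0 matches in windows of 594, 192, 1624, 1797, 2820 and 584 bases. Fgf9 had 1 match in 3142 bases, Fgf10 had 2 in 2799 bases, Fgfr3 had 2 in 1508 bases and Fgf1 had 2, both for miR-18a, in 3573 bases. The share of tested genes with a match among those with a 3′ UTR of similar length (from 0.8 times the length to the length divided by 0.8) was 25% for the length of Fgf20, 6.13% for that of Fgf8, 78% for that of Fgf9 and 73.3% for that of Fgf10. The sites of Fgf9, Fgf10 and Fgfr3 are given with the bases before them, in DNA letters from 5′ to 3′ of the GENCODE M21 transcripts, with the matching bases in capitals. Those of Fgf10 lie close together, at bases 940 to 946 and 950 to 956 of its 3′ UTR.
Fgf9 (chromosome 14), miR-92a, 3′ UTR bases 1993 to 1999: gcagctaattttaagaTGCAATAt
Fgf10 (chromosome 13), miR-19, 3′ UTR bases 940 to 946: tctcagttgacttaaTTTGCACtt
Fgf10 (chromosome 13), miR-92a, 3′ UTR bases 950 to 956: acttaatttgcacttcTGCAATAa
Fgfr3 (chromosome 5), miR-92a, 3′ UTR bases 98 to 104: accctagccagcccaGTGCAATgg
Fgfr3 (chromosome 5), miR-18a, 3′ UTR bases 413 to 419: cctctctcctacatgGCACCTTgt
A match is a description of these letters, and no binding was measured.

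The libraries held 43804667 to 54913325 reads, so that 1 CPM, the unit of the deposited table (reads scaled to the library total), stands for 43.8 to 54.9 reads. Every listed marker of nephron progenitors, early nephrons, ureteric bud, stroma, podocytes, tubules, endothelium and macrophages had a row. By contrast, 1 of 6 skeletal muscle markers (Tnnt3), 1 of 6 adrenal markers (Star) and 2 of 5 gonad markers had one. The 2 gonad rows summed to 18.1 to 28.4 CPM in mutant and 20.5 to 23.5 CPM in control kidneys. The row of the deleted cluster holds the host transcript Mir17hg joined with the microRNA genes and stood at 53.6, 39.8 and 44.6 CPM in the mutant libraries of litters 1, 2 and 3 and at 34.1, 36.4 and 23.0 CPM in the control libraries. Paired by litter, the row was higher in mutant kidneys (log2 change 0.57, limma adjusted p = 0.0292). The adjusted p was 0.222 with genotype alone and 0.0955 without litter 1. The row does not separate the floxed segment from the rest of the host transcript, so it checks nothing about the deletion.

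The ligands changed in both directions in mutant kidneys, while 0 of the 4 receptor rows passed the limma test. Of these rows, 0 had an unadjusted p below 0.05, and those of Fgfr1 and Fgfr2 are each joined with another identifier. In the comparison paired by litter (limma, Benjamini-Hochberg adjusted p below 0.05), Fgf20 rose, Fgf8 and Fgf9 fell, and the other 6 measured members, including Fgf1 and Fgf10, were not called. These are 3 of 9 members, where 11.4% of all tested rows were called, 7.93% higher and 3.51% lower in mutant kidneys. The mutant and control ranges did not overlap for 5 of the 9, which are the 5 measured ligands, while such separation occurred in 17.3% of tested rows. With genotype alone, Fgf20 was the only member called, where 0.363% of tested rows were called higher and 0.196% lower. The median log2 change over the 9 members was 0.02, over all tested rows 0.012.

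Fgf20, the progenitors' own ligand, rose in mutant kidneys and had the lowest mean level of the measured members over all libraries. Only 9.73% of tested rows had a lower mean level. It had 3.44, 3.48 and 3.36 CPM in the mutant libraries of litters 1, 2 and 3, against 1.87, 1.82 and 1.68 CPM in the control libraries. These are 166, 191 and 157 reads in mutant kidneys and 82, 80 and 83 reads in control kidneys. Every mutant library lay above every control library, and the spread within each group was small, with 3.43 ± 0.0579 CPM in mutant and 1.79 ± 0.1 CPM in control kidneys (SD, n = 3 each). Mutant over control ratios in litters 1, 2 and 3 were 1.84 (exact 95% counting interval 1.40 to 2.42), 1.91 (1.47 to 2.52) and 2.01 (1.53 to 2.65). The log2 change on CPM + 0.5 was 0.78 (SE 0.13, limma adjusted p = 0.0108), and 0.0465 was the adjusted p with genotype alone. That scale understates changes of low genes, and the ratio of the group means in CPM was 1.92.

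Fgf9, a ligand of the same subfamily expressed in the ureteric bud, fell. The mutant libraries of litters 1, 2 and 3 had 3.58, 2.66 and 2.89 CPM, and the control libraries 5.57, 4.73 and 4.67 CPM. Again the groups did not overlap, with 3.04 ± 0.480 CPM in mutant and 4.99 ± 0.505 CPM in control kidneys (SD, n = 3 each). The log2 change was -0.64 (SE 0.12, limma adjusted p = 0.0146, and 0.113 with genotype alone). Ratios within litters were 0.643, 0.563 and 0.619, and the highest upper end of their exact 95% counting intervals was 0.784.

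Fgf8, the ligand of the pretubular aggregate, fell most in litter 1. It stood at 4.76, 8.12 and 7.43 CPM in the mutant libraries of litters 1, 2 and 3 and at 9.11, 11.1 and 10.3 CPM in the control libraries. Both libraries of litter 1 were the lowest of their group, and the highest mutant value lay under the lowest control value. The log2 change was -0.58 (SE 0.12, limma adjusted p = 0.0199, and 0.243 with genotype alone), made up of -0.87, -0.43 and -0.45 in litters 1, 2 and 3. Without litter 1, it was -0.44 with an adjusted p of 0.108.

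The calls of Fgf9 and Fgf20 were also lost without litter 1, although their sizes moved little. Fgf9 then had a log2 change of -0.67 (limma adjusted p = 0.0695) and Fgf20 one of 0.80 (0.0532). This comparison rests on 2 litters, and 381 rows in the whole table were called in it in place of 1574. All 3 genes kept their calls without litter 2 (1403 rows called) and without litter 3 (2348 rows called), which also leave 2 litters.

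**Figure D1:**
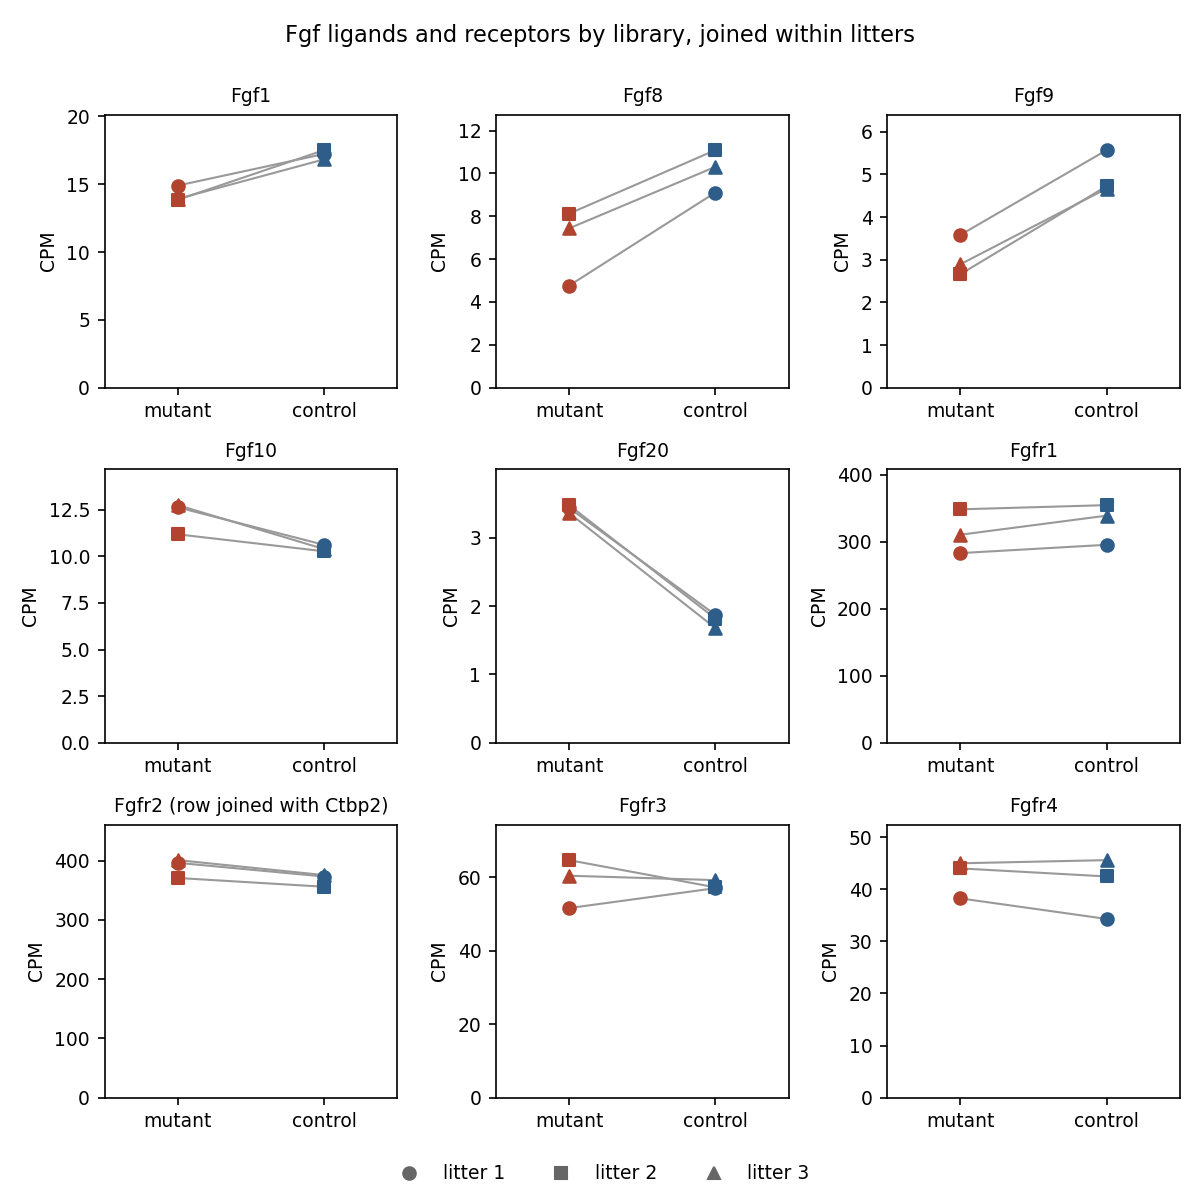
CPM of the 9 measured Fgf ligands and receptors in each library, with mutant kidneys on the left (red) and control kidneys on the right (blue), a line joining the libraries of a litter and a separate axis from 0 in each panel. All 3 lines slope the same way for each of the 5 ligands, and the Fgf20 points of mutant kidneys (3.36 to 3.48 CPM) lie far above those of control kidneys (1.68 to 1.87 CPM).

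Because Fgf20 rose and Fgf9 fell, the balance between these ligands differed. Fgf20 gave 0.96, 1.31 and 1.16 reads per read of Fgf9 in the mutant libraries of litters 1, 2 and 3, against 0.336, 0.385 and 0.359 in the control libraries. This ratio was computed after the values had been seen and was not tested, and it is not corrected for transcript length. Fgf8 gave 1.33, 3.05 and 2.57 reads per read of Fgf9 in mutant libraries and 1.64, 2.35 and 2.21 in control libraries, with overlapping groups. Fgf10, which was not called, gave 3.53, 4.21 and 4.41 in mutant libraries and 1.91, 2.17 and 2.23 in control libraries. These groups did not overlap, so a separated ratio to Fgf9 is not particular to Fgf20.

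Fgf1 and Fgf10 had groups that did not overlap but were not called. Fgf1, a ligand that binds all Fgf receptors, had 14.9, 13.9 and 13.9 CPM in the mutant libraries of litters 1, 2 and 3 and 17.2, 17.5 and 16.8 CPM in the control libraries. Its log2 change was -0.27 (95% interval -0.44 to -0.09, limma adjusted p = 0.0642), and it was negative in 3 of 3 litters. Fgf10, the mesenchymal ligand of ureteric Fgfr2, had 12.6, 11.2 and 12.7 CPM in mutant and 10.6, 10.3 and 10.4 CPM in control libraries. Its log2 change of 0.21 (95% interval 0.01 to 0.41) had an adjusted p of 0.151 by limma and was positive in 3 of 3 litters. These ligands' differences are smaller than those of the called members, in ratio 0.827 for Fgf1 and 1.17 for Fgf10.

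**Figure D2:**
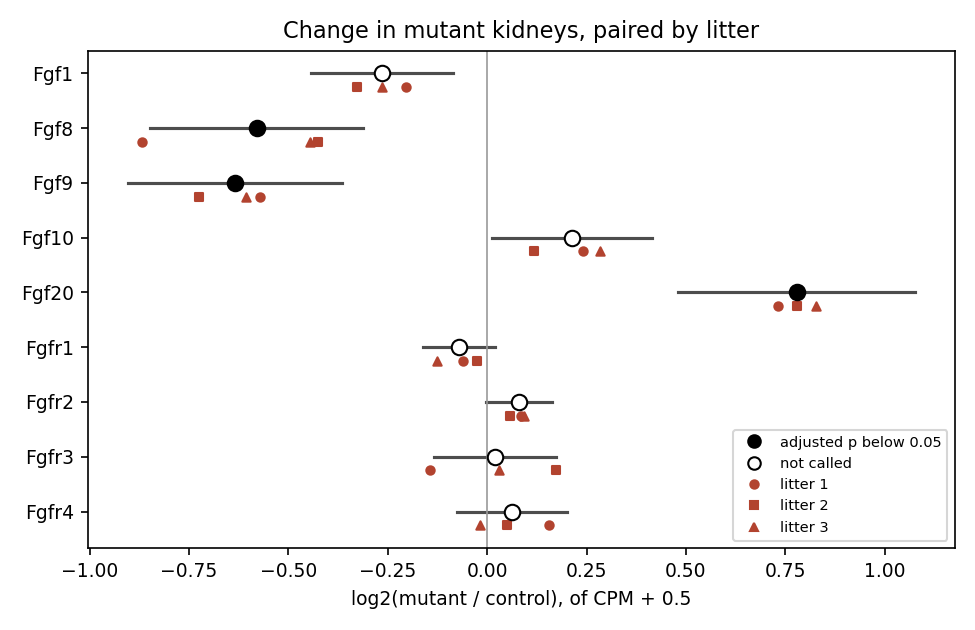
Log2 ratio of mutant to control CPM (plus 0.5) for each member from the comparison paired by litter, with the 95% interval as a bar, a filled circle where the adjusted p was below 0.05, and the ratio of each litter as a small red symbol under it. Fgf20 (0.78), Fgf8 (-0.58) and Fgf9 (-0.64) are filled, and the 4 receptor rows lie between -0.07 and 0.08.

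Per length of transcript, Fgf8 was the most abundant of the measured ligands and Fgf9 and Fgf20 were the least. In CPM per kilobase of the longest annotated transcript, control kidneys held 8.71 ± 0.854 of Fgf8, 4.32 ± 0.0859 of Fgf1, 2.53 ± 0.0426 of Fgf10, 1.39 ± 0.140 of Fgf9 and 1.21 ± 0.0679 of Fgf20 (SD, n = 3). In mutant kidneys the order of the lowest pair was reversed, with 5.80 ± 1.52 of Fgf8, 3.57 ± 0.147 of Fgf1, 2.96 ± 0.212 of Fgf10, 2.32 ± 0.0392 of Fgf20 and 0.847 ± 0.134 of Fgf9. Control ranges of Fgf9 (1.3 to 1.55) and Fgf20 (1.14 to 1.27) lay next to each other, while mutant ranges (0.740 to 0.997 for Fgf9 and 2.28 to 2.36 for Fgf20) lay far apart. The level per length depends on which transcript is made, and the longest was assumed.

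The receptor rows changed little in the comparison paired by litter. Fgfr1, the main receptor of the progenitor lineage together with Fgfr2, had 283, 348 and 310 CPM in the mutant libraries of litters 1, 2 and 3 and 295, 354 and 339 CPM in the control libraries. Its row is joined with an identifier that has no annotation in the tables used here. The log2 change was -0.07 (95% interval -0.16 to 0.02, limma adjusted p = 0.267), and it was negative in 3 of 3 litters. With each library's trend on transcript length and GC content removed, the change was -0.16 and passed (adjusted p = 0.0403).

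The row of Fgfr2 is joined with Ctbp2, a transcriptional co-repressor gene into which an annotated Fgfr2 transcript reaches, so its value cannot be assigned to either gene. It stood at 396, 371 and 401 CPM in the mutant libraries of litters 1, 2 and 3 and at 373, 356 and 375 CPM in the control libraries, with a log2 change of 0.08 (SE 0.04, limma adjusted p = 0.188). The groups overlapped, although the value was higher in the mutant library of every litter.

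Fgfr3 and Fgfr4 showed no common direction among litters. Fgfr3 had 51.6, 64.7 and 60.4 CPM in mutant and 57.0, 57.3 and 59.2 CPM in control libraries, with a log2 change of 0.02 (95% interval -0.13 to 0.17, limma adjusted p = 0.879). Fgfr4 had 38.3, 44.0 and 45 CPM in mutant and 34.3, 42.5 and 45.6 CPM in control libraries, with a log2 change of 0.06 (95% interval -0.08 to 0.20, limma adjusted p = 0.537). A p that misses the threshold does not show that receptor levels were alike. In this comparison the 95% intervals of the 4 receptor rows lay between -0.16 and 0.20 on the log2 scale. Per kilobase of the longest transcript, Fgfr3 stood at 13.9 ± 1.57 CPM in mutant and 13.6 ± 0.284 CPM in control kidneys, and Fgfr4 at 12.8 ± 1.09 and 12.3 ± 1.75 CPM (SD, n = 3), with ranges of the receptors that overlapped in both groups.

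Of 76 other genes of the pathway, 61 had a row and 60 were tested, and 8 rose and 3 fell in mutant kidneys (limma, paired by litter). These are 18.3% of the 60 genes, beside 11.4% of all tested rows (7.93% higher and 3.51% lower). The median log2 change over the 60 genes was 0.03. Without litter 1, 3 rose and 1 fell, and these were Cbl, Flrt2 and Sulf1 among the higher and Etv4 among the lower genes. With genotype alone, Sulf1 was the gene called (adjusted p = 0.0496), where 0.559% of all tested rows were called.

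Of 13 measured feedback and response genes of Fgf signalling 0 rose and 2 fell, and 11 did not pass, with a median log2 change of -0.04. This share of 15.4%, all of it lower, stands beside 11.4% of all tested rows called in either direction and 3.51% called lower. Etv4, a transcription factor induced by Fgf and by Ret signalling, fell to 71.9, 79.9 and 72.5 CPM in the mutant libraries of litters 1, 2 and 3, against 96.3, 118 and 99.4 CPM in the control libraries. Its groups did not overlap, and the log2 change was -0.48 (SE 0.05, limma adjusted p = 0.00208, and 0.0749 with genotype alone). Dusp5, a phosphatase of nuclear ERK kinases, averaged 4.23 ± 0.939 CPM in mutant and 6.20 ± 0.820 CPM in control kidneys (SD, n = 3 each, limma adjusted p = 0.0338, and 0.183 without litter 1). Dusp6, an ERK phosphatase that Fgf signalling induces, averaged 73.1 ± 1.93 CPM in mutant and 73.3 ± 3.18 CPM in control kidneys (SD, n = 3 each). The log2 changes of Etv5, a relative of Etv4, and of the sprouty antagonists Spry1, Spry2 and Spry4 were -0.03, -0.04, -0.06 and -0.07. Their limma adjusted p values were 0.592 to 0.741. Etv1, another relative of Etv4, was not called here. With the length and GC correction Etv1 was called lower, and it was also called without litter 3.

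**Figure D3:**
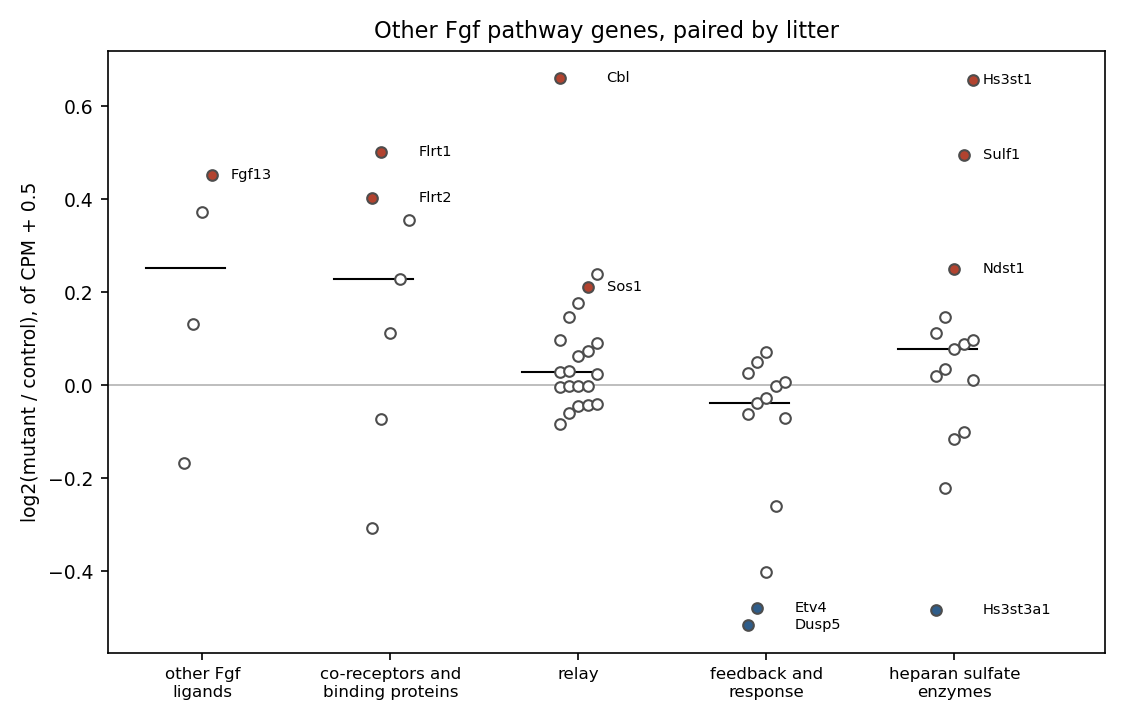
Log2 ratio of mutant to control CPM (plus 0.5) for the 60 tested genes in 5 lists of the Fgf pathway, with the genes called paired by litter filled and named (red higher, blue lower in mutant kidneys), the others open, and a line at each list's median. The 21 relay genes cluster near 0 apart from Cbl (0.66) and Sos1 (0.21), and the 2 filled response genes, Etv4 and Dusp5, lie below 0.

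Enzymes that build or trim heparan sulfate, the chain that holds ligand and receptor together, passed in both directions. Of 15 measured genes 3 rose and 1 fell (26.7%, beside 11.4% of all tested rows), with a median log2 change of 0.08. Sulf1, a secreted enzyme that removes sulfate groups from the chain, had 47.3, 44.1 and 43.2 CPM in the mutant libraries of litters 1, 2 and 3, against 31.4, 31.2 and 32.4 CPM in the control libraries. The groups did not overlap (log2 change 0.49, SE 0.06, limma adjusted p = 0.00365). Of the sulfotransferase genes, Hs3st1 (log2 change 0.66, 3.35 ± 0.693 CPM in mutant and 1.96 ± 0.568 CPM in control kidneys) and Ndst1 (0.25) rose, and Hs3st3a1 (-0.48, 3.44 ± 0.147 CPM in mutant and 5 ± 0.265 CPM in control kidneys) fell, with limma adjusted p values of 0.0415, 0.0293 and 0.0369. Without litter 1 these were 0.166, 0.177 and 0.183, and without litter 2 Hs3st1 (0.115) and Hs3st3a1 (0.0884) were not called. With the length and GC correction Ndst1 had a change of 0.11 and was not called (adjusted p = 0.243).

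Among co-receptors and binding proteins, 2 of 7 measured genes rose and 0 fell (28.6%, beside 11.4% of all tested rows). Flrt2, a transmembrane protein of a family whose members bind Fgf receptors, had 147, 109 and 142 CPM in the mutant libraries of litters 1, 2 and 3 and 110, 89.4 and 99.8 CPM in the control libraries. Its groups overlapped slightly, and within litters it was higher each time (log2 change 0.40, SE 0.05, limma adjusted p = 0.00436). Flrt1 rose as well (0.50, adjusted p = 0.0342, and 0.173 without litter 1, 0.0637 without litter 2 and 0.096 with the length and GC correction). Fgfrl1, a receptor without a kinase domain that mouse nephrogenesis needs, averaged 31.0 ± 2.44 CPM in mutant and 28.9 ± 4.73 CPM in control kidneys (SD, n = 3 each, adjusted p = 0.358 by limma). Kl, the co-receptor for the hormone Fgf23, had a log2 change of -0.31 and was not called (adjusted p = 0.181). It was -0.01, -0.11 and -0.80 in litters 1, 2 and 3, so that litter 3 carries the value. Without litter 3 the change was -0.06 (adjusted p = 0.675), without litter 2 it was -0.41 (0.0298) and without litter 1 -0.45 (0.128).

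The relay from receptor to MAP kinase passed in 2 of 21 genes, near the 11.4% of all tested rows. Cbl, a ubiquitin ligase that takes active receptor kinases off the surface, had 36.2, 39.1 and 45.4 CPM in the mutant libraries of litters 1, 2 and 3 and 19.1, 23.9 and 34.8 CPM in the control libraries (log2 change 0.66, SE 0.10, limma adjusted p = 0.00691). In both groups litter 3 was the highest, and the difference there was the smallest. Sos1, the exchange factor that loads Ras, rose (0.21, adjusted p = 0.0361, and 0.142 without litter 1 and 0.0565 without litter 3), and this was 0.07 and not called with the length and GC correction (adjusted p = 0.415). Frs2, the adaptor of Fgf receptors, averaged 49.4 ± 2.40 CPM in mutant and 44.8 ± 5.91 CPM in control kidneys and was not called (SD, n = 3 each, limma adjusted p = 0.182).

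Of 16 other Fgf ligand genes 5 had a row and 4 were tested. Fgf13, an intracellular family member that binds sodium channels and not the receptors, rose (log2 change 0.45, limma adjusted p = 0.0366, and 0.157 without litter 1 and 0.101 without litter 2). Fgf2, a ligand without a secretion signal, lies in a row joined with Bbs12 and was not called (-0.17, limma adjusted p = 0.277).

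Markers of the cells that make or receive these ligands were called too, and their counts stand against the 7.93% of all tested rows called higher and the 3.51% called lower. Of 12 nephron progenitor markers 4 fell (Six2, Cited1, Meox1 and Eya1) and 0 rose. The log2 change was positive for 6 and negative for 6 of the 12, with a median of -0.01. The summed level of the 12 was 638 to 676 CPM in mutant and 716 to 722 CPM in control kidneys. Cited1, which marks uncommitted progenitors, averaged 10.9 ± 1.87 CPM in mutant and 47.5 ± 8.73 CPM in control kidneys (SD, n = 3 each), and Six2, the factor that maintains progenitors, 38.6 ± 6.68 and 50.6 ± 7.95 CPM.

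Of 8 early nephron markers, the compartment of Fgf8, 3 rose and 0 fell, and 5 were positive and 3 negative in log2 change. They had a sum of 468 to 515 CPM in mutant and 414 to 440 CPM in control kidneys. Wnt4, made in the pretubular aggregate, rose (log2 change 0.28, limma adjusted p = 0.0143, and 0.0838 without litter 1), and Lhx1, a transcription factor of the renal vesicle, was not called (-0.10, adjusted p = 0.382), while Fgf8 fell. Of 9 ureteric bud markers 2 rose and 0 fell, with a sum of 845 to 895 CPM in mutant and 796 to 815 CPM in control kidneys. Ret, the receptor of ureteric tips, rose (0.29, adjusted p = 0.0164, 0.0769 without litter 1 and 0.0912 with the length and GC correction), and Wnt11, a ligand of the tips, was not called (-0.17, adjusted p = 0.0966).

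Of 10 stromal markers 3 rose and 0 fell, with a sum of 2068 to 2233 CPM in mutant and 1669 to 1894 CPM in control kidneys. They include Pdgfra (log2 change 0.51, limma adjusted p = 0.000946) and Foxd1 (0.31, adjusted p = 0.0332, 0.135 without litter 1, 0.0574 without litter 3 and 0.11 with the length and GC correction). Of 6 podocyte markers 2 fell and 0 rose, with sums that overlapped (560 to 638 CPM in mutant and 601 to 707 CPM in control kidneys), and Nphs1, the slit diaphragm protein nephrin, had a log2 change of -0.26 (adjusted p = 0.0286, and 0.181 without litter 1). Of 7 proximal tubule and 6 endothelial markers 4 each rose and 0 fell. In mutant kidneys they summed to 809 to 979 CPM and 916 to 936 CPM. In control kidneys the sums were 664 to 757 CPM and 787 to 828 CPM. The 5 loop and distal tubule markers had 0 calls, with 2 positive and 3 negative in log2 change. Sums of these 5 overlapped (294 to 420 CPM in mutant and 300 to 372 CPM in control kidneys). The sums of macrophage markers (62.6 to 87.7 CPM in mutant and 57.8 to 66.7 CPM in control kidneys) and of red cell markers (763 to 932 CPM in mutant and 849 to 1013 CPM in control kidneys) overlapped. Of 6 neural and Schwann cell markers 2 had a row, with sums of 8.61 to 13.3 CPM in mutant and 11.3 to 19.4 CPM in control kidneys, and 1 of these, the neuronal gene Elavl4, fell (log2 change -1.30). With genotype alone, the calls among all these marker lists were 2 progenitor markers, 1 stromal marker and 1 neural marker. The part of these cell types in the changes of the Fgf genes was not tested.

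**Figure D4:**
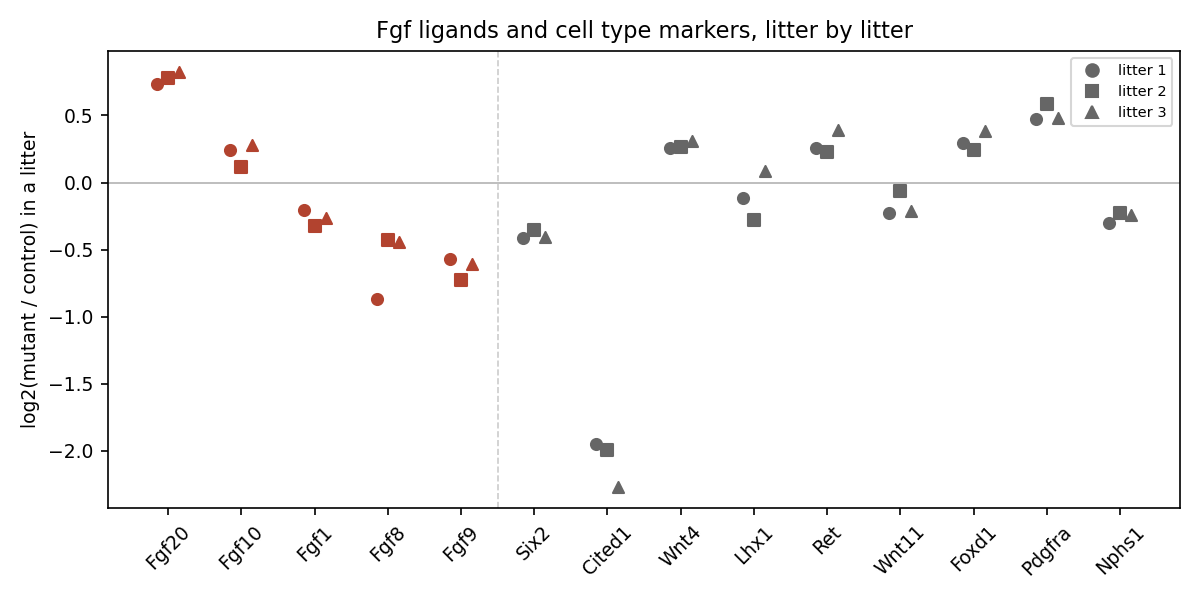
Log2 ratio of mutant to control CPM (plus 0.5) within each litter, for the 5 measured Fgf ligands (red, left of the dashed line) and for markers of nephron progenitors (Six2, Cited1), early nephrons (Wnt4, Lhx1), ureteric tips (Ret, Wnt11), stroma (Foxd1, Pdgfra) and podocytes (Nphs1), in grey. Fgf20 lies at 0.73, 0.78 and 0.83 in litters 1, 2 and 3, above 0 like Wnt4, Ret and the stromal markers, and Cited1 lies far below every Fgf ligand.

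For each called ligand, the rows whose values ran most like it were found from Pearson's r over the 6 libraries, on log2(CPM + 0.5) as deviations from the litter mean, which leaves 3 independent differences. For Fgf20 these were Fam84a, Vldlr, a lipoprotein receptor, and Pam, an enzyme of peptide amidation, with r of 1.0000, 0.9999 and 0.9999, and 387 of 13715 rows had an r above 0.99. For Fgf9 they were Erh, Tmem136 and Med31, a subunit of the Mediator complex, with r of 0.9998 or more among 233 such rows. For Fgf8 they were Aim2, Casz1, a zinc finger factor, and Ptov1, among 113 such rows. This r ignores the size of a change. Fam84a had a log2 change of 0.82, close to the 0.78 of Fgf20, while Aim2 had one of -0.11 beside the -0.58 of Fgf8.

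The direction of the 3 called ligands was the same under every setting in which each was tested. The plot of estimates by setting shows those that keep whole litters, and the 6 settings that leave out a single library are not drawn.

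**Figure D5:**
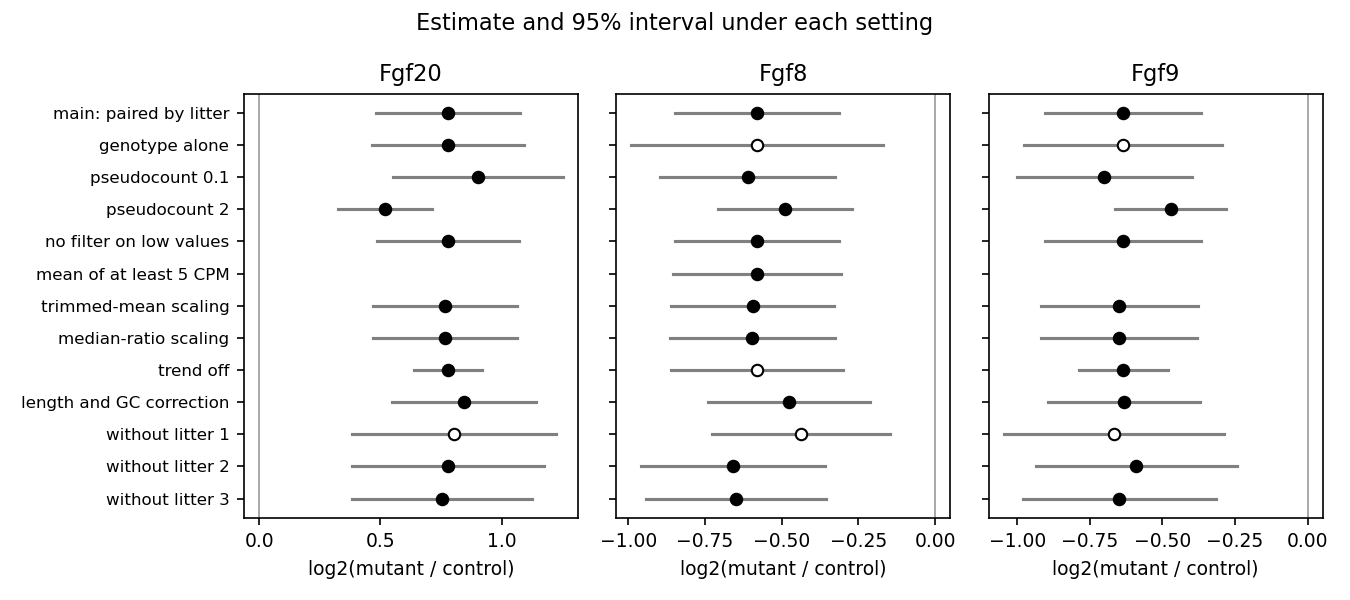
Log2 ratio of mutant to control with its 95% interval for Fgf20, Fgf8 and Fgf9 under the comparison paired by litter (top) and the alternatives that keep whole litters, filled where the adjusted p was below 0.05. Fgf9 and Fgf20 have no entry for the filter on a mean of at least 5 CPM, which they did not pass, and without litter 1 all 3 genes are open.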

How the data were processed

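RNA was harvested with Trizol from flash-frozen kidneys and made into libraries with the Illumina TruSeq RNA kit from 1 microgram of total RNA, per the labels' protocols. The authors deposited CPM values, read counts scaled to a fixed library total. TopHat2 2.0.9, Picard, SAMtools and build NCBIM37 are named in the submitters' processing notes, and the counting program, annotation and strand setting are not given in the sources used here. Genes that overlap share a joined row. Every deposited CPM value was a whole number of reads within 0.001 reads, which gave library totals, and 0.105% to 0.117% of each total lies in no row. Symbols matched 13695 of 13965 rows through GENCODE M21 (GRCm38). No column held values of another sample.

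Rows that reached 1 CPM in 3 or more libraries were compared with limma 3.58.1 (R 4.3.3, mean-variance trend on) on log2(CPM + 0.5), with litter as a block, and p-values were adjusted by Benjamini-Hochberg over all 13766 rows. Litter comes from the labels. Deviations from the group means correlated across genes at 0.619, 0.446 and 0.312 within litters 1, 2 and 3 and at -0.514 to 0.172 between litters. Each gene's deviations cancel out within a group, so positive values within litters push those between litters down. The values between litters are therefore no independent contrast. No pair of replicates differed by as little as read sampling gives (chi-square per degree of freedom 21.9 to 51.6). The paired p-values measure the spread of the mutant to control differences among the litters. Those with genotype alone measure the spread between these libraries. Since separate embryos are not named, neither is known to measure the spread between embryos. Counting intervals are exact (Clopper-Pearson) and cover counting error only. The code was tested on simulated data.

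The members and lists, and the alternatives, were chosen with earlier results of these data known. Named genes were all members, every called gene of the 5 pathway lists, fixed examples among those not called (Etv5, Spry1, Spry2, Spry4, Dusp6, Fgfrl1, Fgf2, Frs2, Kl), 9 fixed markers, Mir17hg, and for each called member the 3 rows of at least 1 CPM most like it. Meox1, Eya1, Etv1, Elavl4, Tnnt3 and Star are named outside that rule, after their values were seen.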

Additional observations from a re-analysis of the deposited data

How the results depend on the processing

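Paired by litter, 1574 rows were called (69.3% higher). With no replicate block 77 were called, with the trend off 204, and with the length and GC correction 891 (441 higher, 450 lower). Without 1 litter the counts were 381 to 2348, and without 1 library and with no block 22, 27, 34, 44, 73 and 100. Leaving out 1 library of a litter gives the same paired estimate as leaving out the litter. The 3 called Fgf members became 1 with no block (Fgf20) and 2 with the trend off. With the filter on a mean of 5 CPM 1 was called (Fgf8, as Fgf9 and Fgf20 were not tested). With the length and GC correction 4 were called, since Fgfr1 joined them as lower. Counts without litters 1, 2 and 3 were 0, 3 and 3. Leaving out 1 library with no block left 0 members called in each of the 6 settings. Where 0 were called, 3 or 4 had an unadjusted p below 0.05 by limma. The 11 called pathway genes became 1 with no block and 3 with the trend off. With the length and GC correction 9 were called, of which 8 were shared with the main comparison. Counts without litters 1, 2 and 3 were 4, 9 and 13. Leaving out 1 library with no block left 0 or 1 called. Where 0 pathway genes were called, 8 or more had an unadjusted p below 0.05 by limma. Under the pairing, other pseudocounts, no filter, trimmed-mean and median-ratio scaling kept all 3 members and 11 pathway genes. Fgf8 had an adjusted p of 0.0777 with the trend off. Over all alternatives in which they were tested, log2 changes ran from 0.52 to 0.90 for Fgf20, from -0.74 to -0.47 for Fgf9 and from -0.72 to -0.36 for Fgf8, with adjusted p values up to 0.208, 0.425 and 0.585. Genes not called changed sign near 0. Fgfr3 was at -0.03 with the length and GC correction. Without 1 litter, Fgfr3 was at -0.06 to 0.10, Spry4 at -0.19 to 0.06 and Dusp6 at -0.05 to 0.03, with 0.01 between. Without 1 library and with no block, values of the changed sign were 0.0008 for Fgfr1 (lowest -0.15), -0.05 and -0.001 for Fgfr3 (highest 0.11), -0.06 for Fgfr4 (highest 0.15), 0.01, 0.02 and 0.08 for Etv5 (lowest -0.11), 0.03 for Spry1 (lowest -0.10) and Spry2 (lowest -0.14), 0.06 for Spry4 (lowest -0.22), and 0.01 and 0.02 for Dusp6 (lowest -0.04). The cause was not tested in any of these. Planned tests by edgeR and DESeq2 on recovered reads were not run, since the table lacks most rows of few reads. Fgf20 rests on 80 to 191 reads per library, so counting error limits each ratio.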
